A study of Homo sapiens with 40 samples.

Results

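The genes described here are protein-coding genes whose annotated span, from gene start to gene end in GENCODE 44 on hg38, was at least 500 kb and whose mean raw count over 40 libraries was at least 10. A script found 200 such genes among the 58395 genes of the count table. GENCODE 44 holds 323 protein-coding genes of that span, of which 320 were listed in the table. The other 120 listed genes had a mean count under 10, with 76 of them under 1. All 200 members were tested, and 167 of them had a mean count of at least 10 in all 10 groups, while 33 reached that mean in fewer groups. The mean count is part of the rule, so the level itself is no finding.

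Gene expression was measured by RNA sequencing of poly(A) RNA in HEK293A, a line of adherent cells from human embryonic kidney. Wild-type cells (WT) and cells with a homozygous CRISPR/Cas9 knockout of PARP1 (PARP1-KO) were compared. The knockout is 1 cell line, so its effect cannot be told apart from other differences between the lines. In the labels, the genotype field calls these cells a PARP1 knockdown while the titles call them knockout. Each genotype was left untreated or exposed to a treatment for about 5 h. The treatments were 0.1% DMSO, topotecan (Tpc), 5 µM OL9-119, and Tpc together with 5 µM OL9-119. All drug treatments, the combination included, also held 0.1% DMSO. Tpc was given at 100 nM to WT cells and at 50 nM to PARP1-KO cells, so genotype and dose of Tpc cannot be told apart. There were 4 libraries per group, which the labels call biological replicates and the study's methods in part technical ones. The p-values measure the spread between these libraries.

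RNA polymerase II has to travel the whole span of a gene before a full transcript is made, and in very long genes nearly all of that way is intron. Topoisomerase 1 (TOP1) removes the DNA supercoils that build up ahead of and behind the moving polymerase. Topotecan traps TOP1 on DNA after it has cut a strand, and such trapped complexes are known to halt elongating polymerases. TDP1, the target of the inhibitor OL9-119, releases trapped TOP1 from DNA, and PARP1 takes part in the repair of the break.

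The members had a median span of 686 kb, from 500.047 kb for AFF2, the FMR2 gene of chromosome X, to 2305 kb for CNTNAP2, a neuronal adhesion protein gene on chromosome 7. The longest intron of the canonical transcript had a median of 176 kb, or 29.5% of the span of that transcript. The median exonic length was 12182 bases, against 6510 bases for the 4450 protein-coding genes that span 30 to 100 kb, and the median GC content was 38.7% against 42.8%. The canonical transcript was shorter than 500 kb for 50 of the members. For 37 members at least 5% of the exonic bases also belonged to another gene, and reads there may have been split or lost in counting. Just outside the span threshold lay ITPR2 (497843 bases) and DIAPH3 (498346 bases), and just inside it AFF2 (500047 bases) and ANO5 (500909 bases). Just outside the count threshold lay PHACTR1 and TAFA2 with mean counts of 9.9 and 9.97, and just inside it PPFIA2 and ADAMTSL1 with 10.3 and 10.4.

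The libraries held between 3455043 and 20379777 counts (median 10656829). PARP1, the targeted gene, stood at 737 to 887 CPM (counts scaled to the library's total, per 1e6) in the WT libraries and at 30.4 to 46.6 CPM in the PARP1-KO libraries. Of the marks known for this line, KRT8, KRT18 and NEFL were present at 189 to 1032 CPM in all libraries, CDH2 at 29.1 to 62.98 CPM, and LHX1 and NEFM at 3.38 to 49.6 CPM. PAX2 was between 0.0979 and 12.1 CPM and INA between 0 and 3.26 CPM. Of the markers of other cell types, PTPRC and CD3E were below 0.5 CPM in every library, ALB reached 1.2 CPM, PECAM1 2.74 CPM and VWF 5.55 CPM, and the fibroblast collagens COL1A1 and COL3A1 lay at 7.62 to 43.03 CPM. Their part in the results was not tested.

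The level of the members in a library was summarised as the median over the 200 genes of the difference in log2 CPM from the untreated mean of the same genotype. In WT cells the untreated libraries lay between -0.21 and 0.28, the Tpc libraries between -0.54 and -0.24, and the Tpc + OL9-119 libraries between -0.42 and -0.25. The libraries with Tpc thus lay below all 4 untreated libraries in WT cells. The WT libraries with DMSO alone lay between -0.50 and 0.33, and the lowest of them, replicate 3, overlapped with the Tpc libraries. In PARP1-KO cells the untreated libraries lay between -0.05 and 0.10 and the Tpc libraries between -0.45 and -0.28, again without overlap. The PARP1-KO libraries with DMSO alone lay between -0.35 and 0.03, and the lowest, replicate 3, overlapped with Tpc. With OL9-119 alone the values were 0.02 to 0.42 in WT and 0.01 to 0.15 in PARP1-KO cells. The share of all counts that fell on the members was 0.379% ± 0.065 (SD, n = 4) in untreated and 0.301% ± 0.025 in Tpc-treated WT cells, and 0.435% ± 0.022 and 0.329% ± 0.015 in PARP1-KO cells.

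**Figure D1:**
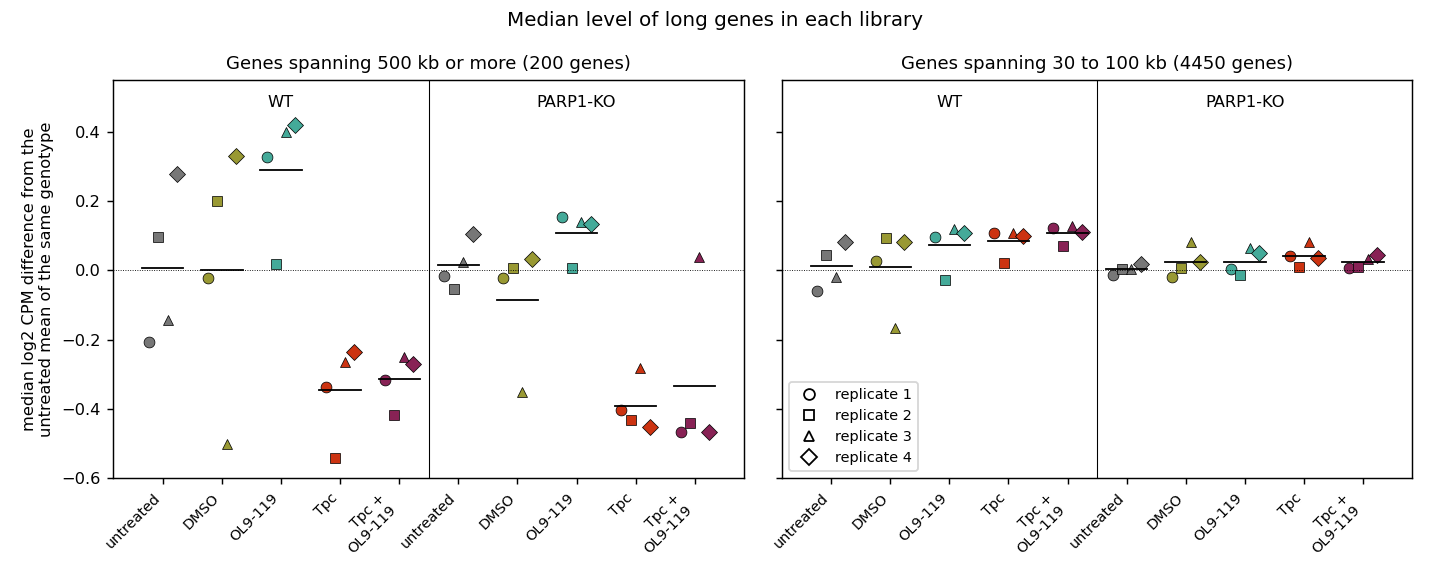
Each point is 1 library, placed by group on the horizontal axis and by the median log2 CPM difference of the 200 long genes from the untreated mean of the same genotype on the vertical axis; the right panel gives the same measure for the 4450 genes spanning 30 to 100 kb, marker shapes give the replicate number and lines the group means. The Tpc libraries lie below the untreated libraries of their genotype, and replicate 3 of PARP1-KO with DMSO and replicate 3 of PARP1-KO with Tpc + OL9-119 lie apart from their groups.

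In this measure 2 PARP1-KO libraries went against their labels. The library labelled DMSO replicate 3 had a median of -0.35, while the other DMSO libraries lay between -0.02 and 0.03, and 150 of the 200 members were below the untreated mean in it. It lay within the range of the Tpc libraries. The library labelled Tpc + OL9-119 replicate 3 had a median of 0.04, while the others of its group lay between -0.47 and -0.44. In that library 86 members were below the untreated mean, against 169 to 182 in the others. The first lay below its own group and the second above its own, and the labels were kept as given. Results that rest on these libraries are therefore given with both and without both. In WT cells the library labelled DMSO replicate 3 was also low, at -0.50, and there genes spanning 30 to 100 kb were lower as well (-0.17). OL9-119 replicate 2 in WT cells was the lowest of its group at 0.02.

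Tpc in WT cells was followed by a lower level of most long genes. The median log2 fold change against untreated cells was -0.45, which is 0.733 of the untreated level, and 153 of the 200 members were below 0. Over all 28922 genes tested the median was 0.00, and it was -0.00 over the 13388 protein-coding genes with a mean count of at least 10. The quasi-likelihood test of edgeR called 7 members lower and 1 higher at an adjusted p below 0.01, where 0.304% of all genes tested were called lower and 0.553% higher. At an unadjusted p below 0.05, 69 members were lower and 2 higher, compared with 7.32% and 8.23% of all genes tested. In 35 members all 4 Tpc libraries lay below all 4 untreated ones, compared with 4.8% of the protein-coding genes. Fewer cells that express a gene and less RNA per cell cannot be told apart in such bulk samples.

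FAF1 encodes a ubiquitin-binding adaptor named for its binding to the death receptor FAS. It spans 523 kb on the minus strand (chr1:50437028-50960267) and is among the 5 members of highest mean CPM. In untreated WT libraries FAF1 stood at 112, 112, 109 and 94.3 CPM, and in Tpc libraries at 55.3, 70.1, 57.1 and 60.0 CPM. All 4 Tpc libraries were below all 4 untreated ones. The log2 fold change was -0.82 (SE 0.13), with an adjusted p of 4.5e-05 in the edgeR test.

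PARD3, on chromosome 10 (chr10:34109560-34815325), encodes a scaffold of the polarity complex that sets up cell junctions. It was measured at 138, 142, 114.1 and 149 CPM in untreated WT cells and at 79.8, 64.0, 84.0 and 83.0 CPM with Tpc. The groups did not overlap, and the log2 fold change was -0.80 (SE 0.14, adjusted p 0.000165). AGAP1, which encodes an Arf GTPase-activating protein of endosomal traffic (chr2:235494043-236131793), had the lowest log2 fold change of those called, -1.23 (SE 0.24, adjusted p 0.000953). Its levels were 31.7, 50.1, 54.8 and 54.0 CPM without treatment and 21.1, 13.95, 20.9 and 25.1 CPM with Tpc.

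GPHN encodes gephyrin, a scaffold of inhibitory synapses that also makes the molybdenum cofactor (chr14:66507407-67181803). The untreated WT libraries held 31.6, 28.5, 27.5 and 26.9 CPM and the Tpc libraries 14.4, 14.7, 14.1 and 14.4 CPM. The spread between replicates was small in both groups, and the log2 fold change was -0.99 (SE 0.21, adjusted p 0.00249). For GPHN 12.7% of the exonic bases are shared with another gene.

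The other members that fell in WT cells with Tpc were EXOC4, ADK and PTPRG. EXOC4, a subunit of the exocyst that tethers secretory vesicles, went from 67.2, 45.7, 32.7 and 54.0 CPM to 31.8, 17.0, 28.6 and 30.3 CPM, a log2 fold change of -0.89 (adjusted p 0.00311). The untreated values were spread widely but did not overlap with those of Tpc. ADK, the adenosine kinase, fell by 0.75 on the log2 scale (adjusted p 0.00872), and PTPRG, a receptor tyrosine phosphatase, had a value of -0.98 (adjusted p 0.00905). Both lost their call in 7 of the 8 fits that left out 1 of the libraries compared, with adjusted p-values of up to 0.067 and 0.0681, ADK in all but the one without untreated replicate 4 and PTPRG in all but the one without untreated replicate 3. GPHN lost it in 4 of them, without untreated replicate 1 (adjusted p 0.0145) or without Tpc replicate 1, 3 or 4. EXOC4 lost it without untreated replicate 1 (adjusted p 0.0614) or Tpc replicate 2 (0.0433), and AGAP1 without Tpc replicate 2 (0.014). The count of members called went down to 4 without either of these 2 libraries and to 5 without Tpc replicate 1, 3 or 4.

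CREB5 was the only member called higher with Tpc in WT cells. It encodes a leucine zipper transcription factor that binds cAMP response elements, and spans 527 kb on chromosome 7 (chr7:28299321-28825894). Its levels were 31.6, 36.1, 38.4 and 45.3 CPM in untreated and 60.1, 67.4, 69.5 and 79.0 CPM in Tpc-treated WT libraries. Every Tpc library was above every untreated one, and the log2 fold change was 0.87 (SE 0.16, adjusted p 0.000474).

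**Figure D2:**
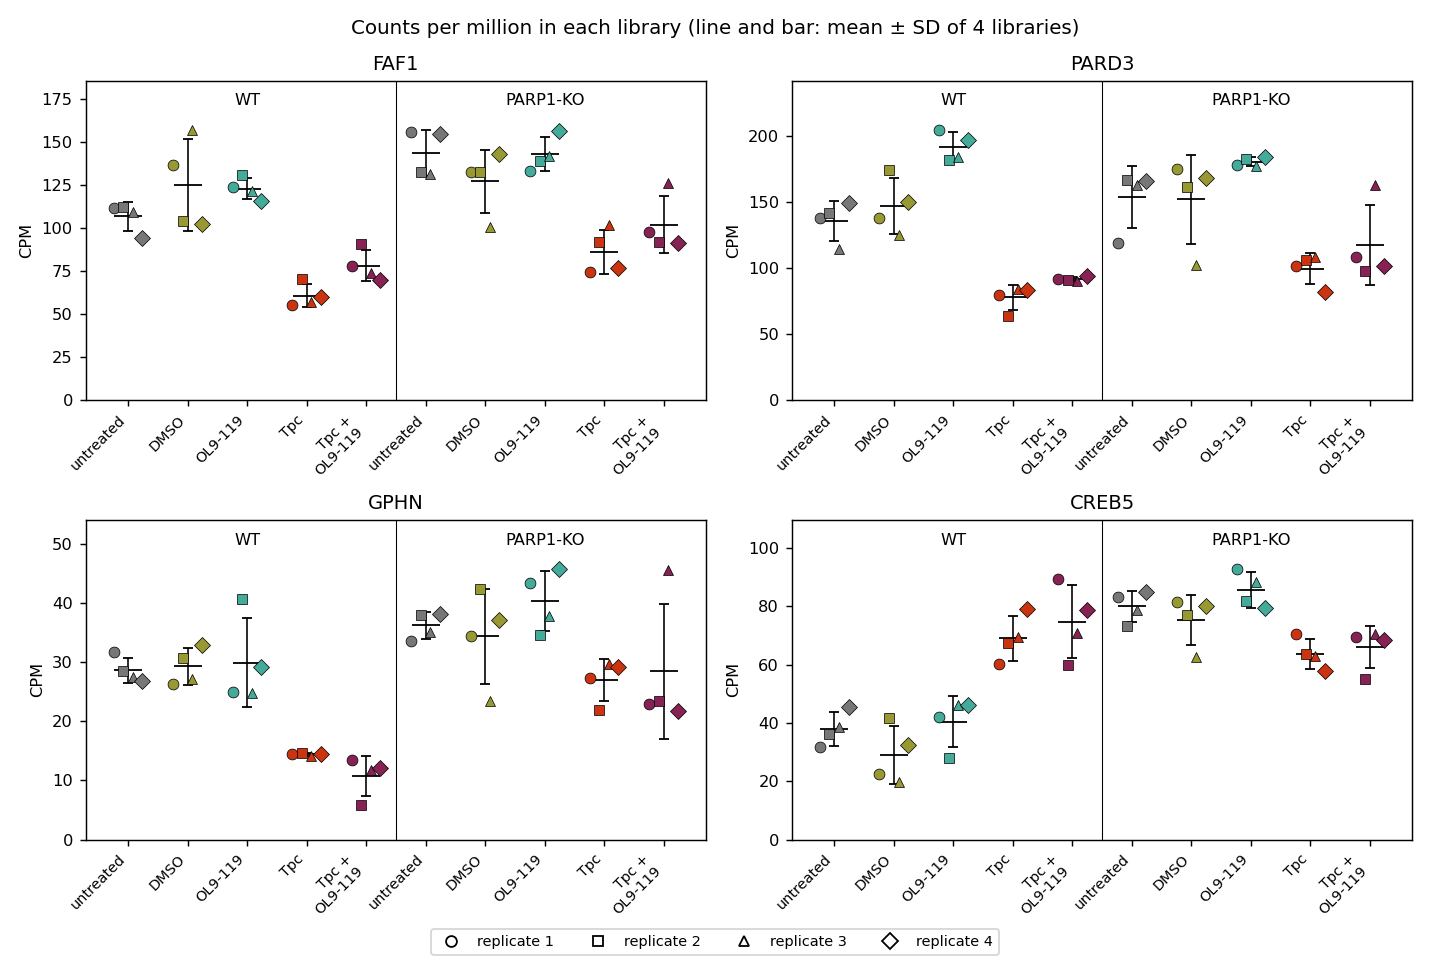
CPM (vertical axis) of FAF1, PARD3, GPHN and CREB5 in each of the 40 libraries, by group, with lines and bars for the mean and SD of 4 libraries and marker shapes for the replicate number. In WT cells the first 3 genes are lower and CREB5 is higher with Tpc and with Tpc + OL9-119, and in PARP1-KO cells CREB5 is at 73.2 to 84.9 CPM without treatment.

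In PARP1-KO cells with 50 nM Tpc, FAF1 was the 1 member called, where 0.0138% of all genes tested were called, and no member was called higher. FAF1 stood at 156, 132, 131 and 154 CPM without treatment and at 74.3, 91.6, 101.7 and 76.5 CPM with Tpc. The groups did not overlap, and the log2 fold change was -0.74 (SE 0.13, adjusted p 0.00503). The call was lost in 7 of the 8 fits that left out 1 library, all but the one without Tpc replicate 3, with an adjusted p of up to 0.0784 and 0 members called. The median log2 fold change of the members was -0.40 (0.756 of the untreated level), against -0.01 over all genes tested, and 169 members were below 0. Without adjustment, at p below 0.05, 57 members were lower and 2 higher, compared with 3.23% and 2.7% of all genes tested. In 67 members all 4 Tpc libraries lay below all 4 untreated ones, compared with 4.78% of the protein-coding genes.

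The number of members called in PARP1-KO cells differed between fits. In the fit of all libraries both genotypes share 1 estimate of the spread per gene. When each genotype was fitted alone, the SE of FAF1 was 0.108 in PARP1-KO and 0.155 in WT cells. The cause of the different counts was not tested. When the 20 PARP1-KO libraries alone were fitted, 19 members were called lower, where 0.277% of all genes tested were called lower. Their log2 fold changes ranged from -1.12 to -0.64. Among them, and picked after their values were seen, were NLGN1, a synaptic adhesion protein gene, NFIA, a transcription factor gene, the protein kinase genes PRKD1 and PRKG1, and the axon guidance receptor gene ROBO1. ERC1, a scaffold of vesicle release sites, had a log2 fold change of -1.01 in this fit with an adjusted p of 3.73e-05, and TTC28, a protein of the mitotic spindle midzone, one of -1.11 with an adjusted p of 2.53e-05. Of the 19 genes, AGAP1, FAF1 and PARD3 were also called lower in WT cells in the fit of all libraries. When only the WT libraries were fitted, 3 members were called lower in WT cells, where 0.18% of all genes tested were called lower.

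Leaving out both libraries that stand apart gave 3 calls for Tpc in PARP1-KO cells, where 0.0519% of all genes tested were called lower. FAF1 showed a log2 fold change of -0.75 (adjusted p 0.000468) in that fit, PARD3 one of -0.64 (adjusted p 0.00287) and TTC28 one of -1.13 (adjusted p 0.0081). With all libraries PARD3 and TTC28 had adjusted p-values of 0.0713 and 0.0533. TTC28 held 58.2, 47.7, 55.8 and 60.2 CPM in untreated and 18.5, 32.5, 29.4 and 22.3 CPM in Tpc-treated PARP1-KO libraries. These values did not overlap, and 7.79% of the exonic bases of TTC28 are shared with another gene.

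Between the genotypes the log2 fold changes with Tpc were below 0 in both for 138 members (69%), compared with 31.6% of the protein-coding genes. Of the members 76.5% were below 0 in WT and 84.5% in PARP1-KO cells. A large share thus had to be below 0 in both, whatever the likeness gene by gene. A further 16 members were above 0 in both, 15 were below 0 only in WT and 31 only in PARP1-KO cells. Across the members Pearson's r between the 2 sets of fold changes was 0.40 and Spearman's rho 0.47, and among the 148 members with a mean count of at least 50 they were 0.52 and 0.53. Over the 13388 protein-coding genes with a mean count of at least 10 they were 0.23 and 0.30. The points are genes of the same libraries and share depth and length, and the 2 comparisons share no library. The difference of the Tpc response between the genotypes passed the test for 1 member, CREB5, where 0.1% of all genes tested were called. CREB5 held 83.1, 73.2, 78.6 and 84.9 CPM in untreated and 70.4, 63.7, 62.9 and 57.9 CPM in Tpc-treated PARP1-KO libraries. Its log2 fold change was -0.33 there (adjusted p 0.837), and the difference from WT was -1.19 (SE 0.23, adjusted p 0.00284). It missed the threshold in 4 of 16 fits without 1 library, where untreated WT replicate 1, WT Tpc replicate 4 or replicate 4 of either PARP1-KO group was left out, with an adjusted p of up to 0.0164. Over the members the median of the difference was 0.00.

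**Figure D3:**
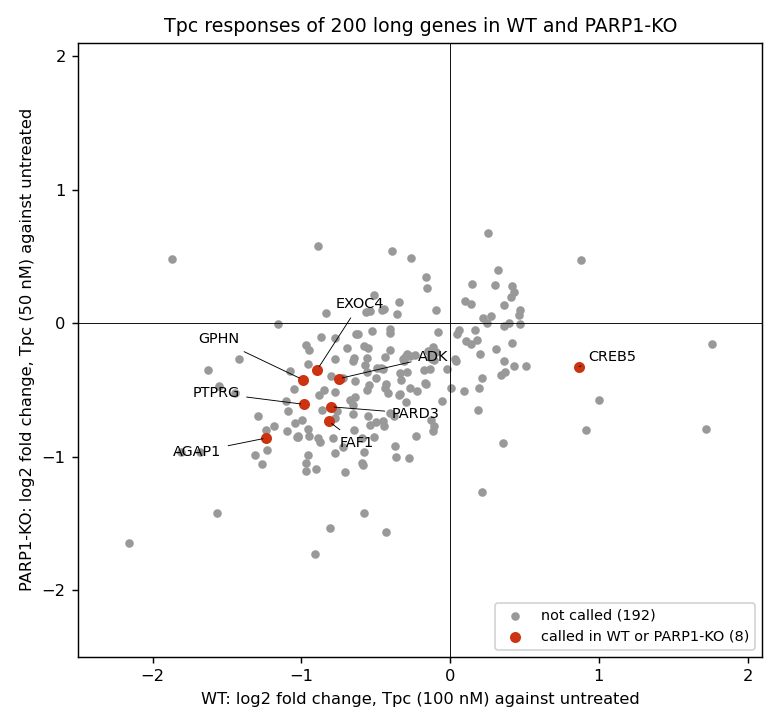
Each point is 1 of the 200 long genes, with the log2 fold change of 100 nM Tpc against untreated cells in WT on the horizontal axis and of 50 nM Tpc in PARP1-KO on the vertical axis; coloured points are the members called in either genotype. The lower left quadrant holds 138 members, and CREB5 lies to the right of 0 in WT and below 0 in PARP1-KO.

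Above 30 kb the medians were lower the longer the span, with the members at the far end. In WT cells with Tpc the median log2 fold change was -0.08 for the 2425 protein-coding genes under 10 kb, 0.01 for 10 to 30 kb, 0.06 for 30 to 100 kb and 0.02 for 100 to 200 kb. It was -0.17 for the 903 genes that span 200 to 500 kb and -0.45 for the members. In PARP1-KO cells the medians of the same classes were -0.02, 0.04, 0.04 and -0.09, then -0.27 and -0.40. At the threshold of 500 kb the log2 fold changes in WT cells were -0.34 for ITPR2 and -0.54 for DIAPH3 just outside it, and -0.65 for AFF2 and 0.10 for ANO5 just inside. These medians are a description with no test.

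In WT cells with Tpc the members were the lowest of the span classes within each class of exonic length, cut at the quartiles, and each class of mean count as well. The median was -0.40 for the 152 members above the third quartile of exonic length and 0.10 for genes of 30 to 100 kb in the same class. It was -0.65 for the 31 members between the median and the third quartile, against 0.09. Few members lay below the median of exonic length, so the values of the lower classes rest on few genes. By mean count it was -0.38 for members of 10 to 50 counts, -0.52 for 50 to 200 counts and -0.44 for 200 counts or more, against 0.05, 0.05 and 0.06 for the genes of 30 to 100 kb. By exonic overlap with other genes the medians of the members were -0.44 for the 163 with under 5% and -0.56 for the other 37.

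Within the members the medians had no steady order by span. They were, in WT cells with Tpc, -0.48 for 500 to 600 kb, -0.55 for 600 to 800 kb, -0.40 for 800 to 1000 kb and -0.33 for the 33 genes of 1000 kb or more. In PARP1-KO cells they were -0.36, -0.49, -0.33 and -0.38 in the same order. The longest members were not called: CNTNAP2 showed a log2 fold change of 0.14 (adjusted p 0.838), PTPRD, a receptor phosphatase gene of 2299 kb, one of -0.33 (adjusted p 0.644), and DMD, the dystrophin gene of 2242 kb, one of -0.46 (adjusted p 0.321). DLG2 (2173 kb) and MACROD2 (2058 kb) had 0.43 and 0.25 at mean counts of only 26.5 and 41.0, with standard errors of 0.64 and 0.60. A standard error of this size leaves a change of the size of the members' median undetectable at this depth.

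**Figure D4:**
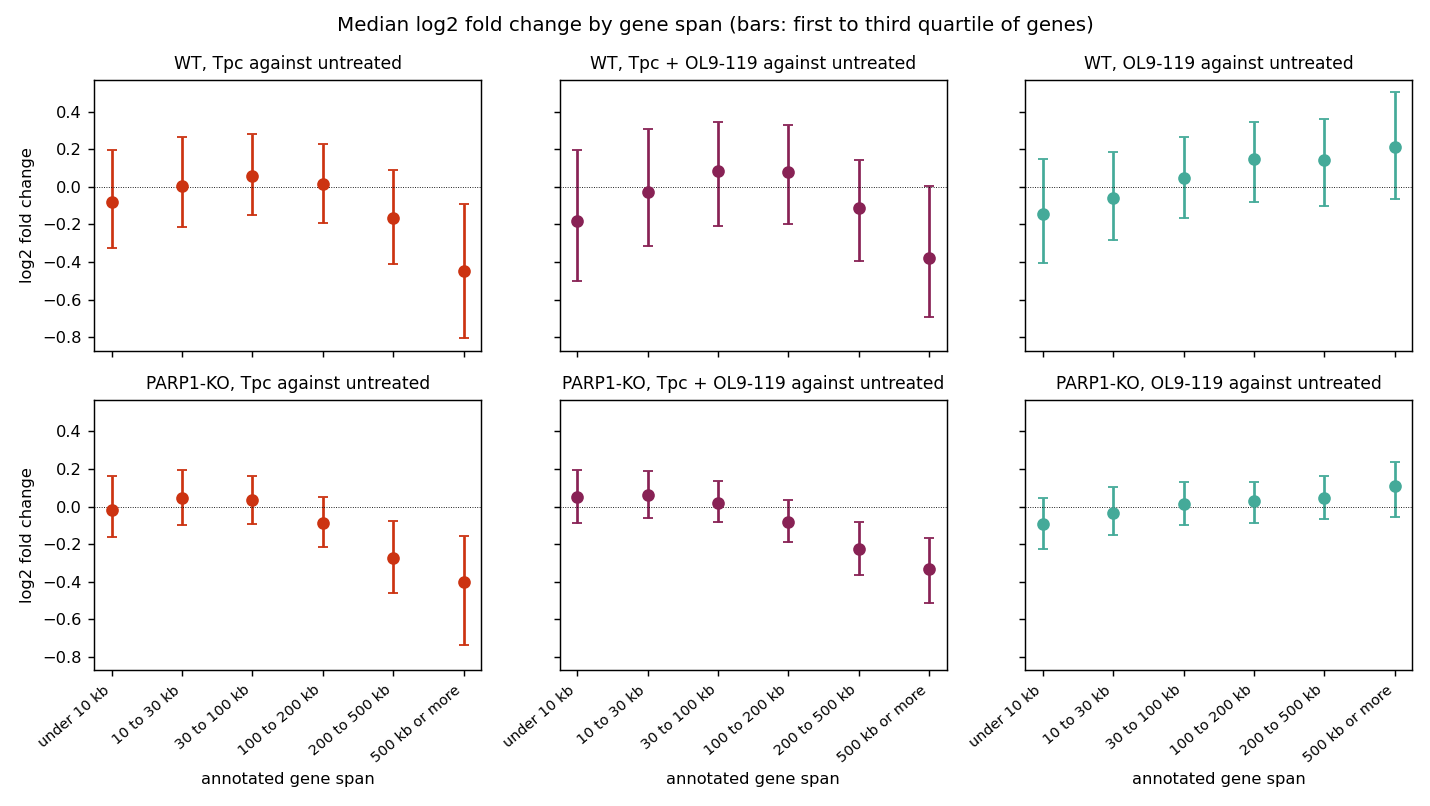
Median log2 fold change (vertical axis) of protein-coding genes in 6 classes of annotated span (horizontal axis), with bars from the first to the third quartile of genes, for the drug treatments in WT and PARP1-KO cells. With Tpc and with Tpc + OL9-119 the longest class lies lowest in both genotypes, and with OL9-119 alone it is the highest in both.

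Many members have more than 1 start, so the annotated span can exceed the stretch that was transcribed. RefSeq promoter starts on GRCh38.p14 lay within the gene for 168 of the 200 members, with 1 start for 70 of them and more for 98. For each gene the distance from the innermost listed start to the gene end was taken as the shortest route. In WT cells with Tpc the median log2 fold change was -0.12 for the 39 members with a shortest distance under 200 kb, -0.39 for the 46 members of 200 to 500 kb and -0.56 for the 83 members of 500 kb or more. In PARP1-KO cells the medians were -0.25, -0.47 and -0.46. Of the 7 members called lower in WT cells 5 were matched, and all 5 lay in the class of 500 kb or more. That class holds 83 of the 168 matched members, and 0.304% of all genes tested were called lower. CREB5, the member called higher, has 3 listed starts at 413, 390 and 140 kb from the gene end. With Tpc + OL9-119 the medians in WT cells were -0.04, -0.26 and -0.43 in the same order, with 0, 3 and 6 members called lower and 2, 0 and 0 called higher. There 2% of all genes tested were called lower and 2.07% higher, and such small counts do not order the classes. Which start was used in these cells cannot be read from gene counts, and the classes were drawn after the data were seen.

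**Figure D5:**
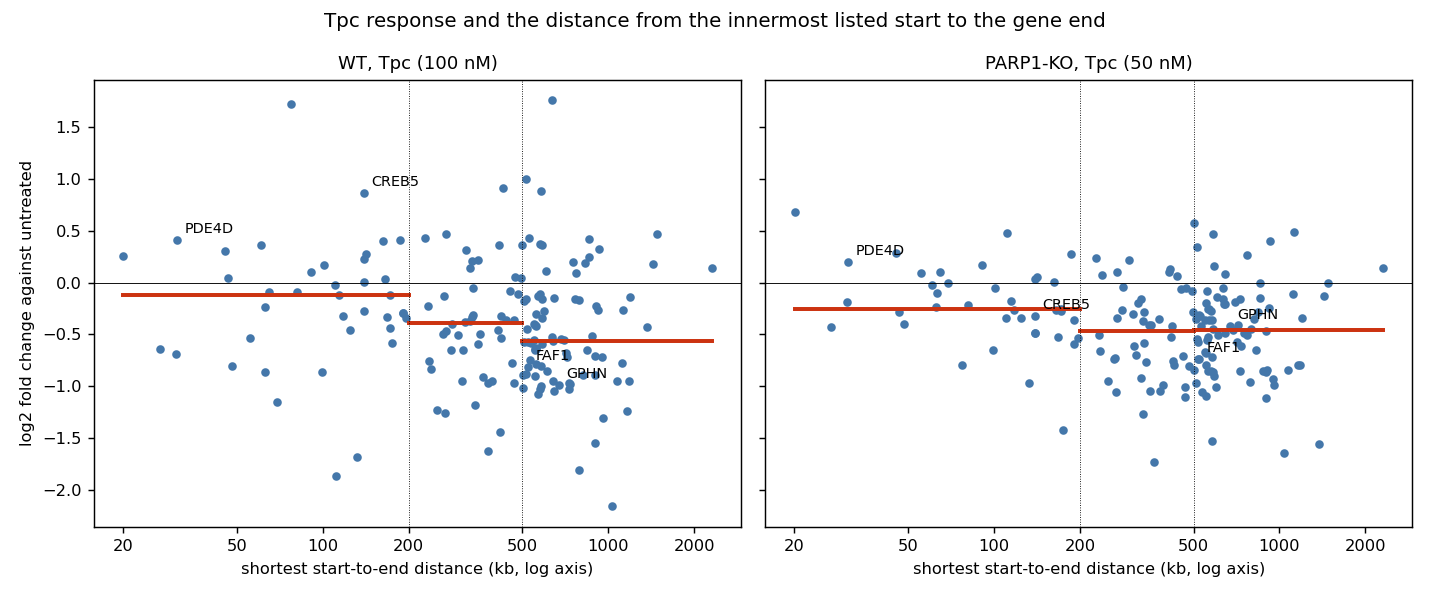
Each point is 1 of 168 long genes, with the distance in kb from its innermost RefSeq start to the gene end on the horizontal log axis and the log2 fold change of Tpc against untreated cells on the vertical axis, for WT (left) and PARP1-KO (right). Lines mark the medians of 3 distance classes, which in WT go from -0.12 under 200 kb to -0.56 at 500 kb or more.

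The starts of FAF1 and CREB5 are printed as examples, picked after their responses were seen. FAF1 fell in both genotypes and has 1 far start. CREB5 rose in WT cells, its response differed between the genotypes, and it has starts at several distances. Whether the starts bear on these responses was not tested. For Tpc, members with 1 listed start had a median log2 fold change of -0.554 in WT cells, with 54 of 70 below 0. Members with more starts had one of -0.375, with 72 of 98 below 0. The same medians were -0.390 and -0.386 when PARP1 was knocked out. The sequences are from RefSeq on GRCh38.p14, 5′ to 3′ on the gene's strand, and end just before the start, or 152 bases before it for the innermost CREB5 start, where the annotated exons of the window were left out. Capitals mark a TATA box (TATAAA).
FAF1 single start, chr1:50960268-50960517, minus strand: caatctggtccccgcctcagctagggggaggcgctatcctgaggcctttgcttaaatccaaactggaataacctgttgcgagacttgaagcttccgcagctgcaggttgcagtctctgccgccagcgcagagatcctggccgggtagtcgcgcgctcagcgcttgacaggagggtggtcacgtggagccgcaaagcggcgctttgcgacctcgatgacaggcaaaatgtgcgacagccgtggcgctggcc
CREB5 outermost start, chr7:28412268-28412517, plus strand: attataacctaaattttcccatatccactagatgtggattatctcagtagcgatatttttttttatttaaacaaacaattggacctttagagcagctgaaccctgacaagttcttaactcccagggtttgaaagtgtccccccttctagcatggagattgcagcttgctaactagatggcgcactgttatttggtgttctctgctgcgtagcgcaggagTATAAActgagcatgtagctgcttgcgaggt
CREB5 innermost start, chr7:28685883-28685980, plus strand: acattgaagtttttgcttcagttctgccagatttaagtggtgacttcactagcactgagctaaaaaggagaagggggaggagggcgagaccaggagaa
The FAF1 window of 250 bases had a GC content of 61.6% and 20 CpG, and the outermost CREB5 window 42.0% and 5 CpG. Over the 410 starts of members the median was 56.8% GC with 10 CpG, against 62.0% and 17 CpG over the 21613 starts of protein-coding genes. Searched on both strands of the 250 bases before the start, a GC box (GGGCGG) was present at 39.3% of the members' starts and 54.2% of all, a TATA box at 10.98% and 8.99%, an AP-1 motif (TGANTCA) at 8.29% and 5.36%, and a CRE (TGACGTCA) at 0.976% and 2.04%. The innermost CREB5 window held an AP-1 motif in the part that is not printed. Such matches describe letters only.

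With Tpc + OL9-119 in WT cells 10 members were called lower and 2 higher, where 2% of all genes tested were called lower and 2.07% higher. The genes tested include genes of lower counts than the rule for members allows. Of the 2425 protein-coding genes under 10 kb with a mean count of at least 10, 208 were called lower and 83 higher. For the 903 genes of 200 to 500 kb these counts were 38 and 10. Calls were thus not particular to the members. The median log2 fold change was -0.38, and 149 members were below 0. An unadjusted p below 0.05 was reached by 60 lower and 6 higher members, compared with 11.1% and 10.6% of all genes tested. All 4 libraries lay below the untreated ones in 21 members, compared with 7.78% of the protein-coding genes. The span classes ran from -0.18 under 10 kb and 0.08 at 30 to 100 kb to -0.11 at 200 to 500 kb and -0.38 for the members. Within the members the fall did not deepen with span. The medians were -0.35 for 500 to 600 kb, -0.56 for 600 to 800 kb and -0.33 for 800 to 1000 kb. For the 33 members of 1000 kb or more the median was -0.028, with 17 below 0.

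GPHN was also the member with the lowest adjusted p with the combination in WT cells. Its 4 libraries held 13.4, 5.83, 11.8 and 12.1 CPM, all below the untreated 26.9 to 31.6 CPM, and the log2 fold change was -1.42 (SE 0.22, adjusted p 3.82e-06). TTC28 went from 35.2, 41.0, 47.9 and 46.96 CPM to 14.4, 7.02, 23.5 and 22.8 CPM, again without overlap, with a log2 fold change of -1.37 (SE 0.25, adjusted p 0.000125). FOXP2, a forkhead transcription factor gene known for its role in speech circuits, held 8.14, 13.1, 24.8 and 15.5 CPM in untreated and 2.72, 4.10, 7.60 and 6.59 CPM in treated libraries. It had the lowest log2 fold change of those called, -1.59 (SE 0.40, adjusted p 0.00625), and lost the call without untreated replicate 3 (adjusted p 0.0521) or without combination replicate 1, 2 or 4. The count of 12 members called went down to 6 without combination replicate 1 and to 7 without replicate 2 or 4.

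WWOX, an oxidoreductase gene at a common fragile site, held 20.9, 19.99, 39.8 and 11.2 CPM in untreated and 5.45, 10.0, 10.2 and 8.79 CPM in combination-treated WT libraries. The lowest untreated and the highest treated library lay close together, and the log2 fold change was -1.42 (SE 0.31, adjusted p 0.00153). The call was lost without untreated replicate 3 (adjusted p 0.0328) or combination replicate 1 (0.0159). For RBMS3, which encodes an RNA-binding protein, the log2 fold change was -1.44 (SE 0.37, adjusted p 0.00652), but its untreated libraries ranged from 4.77 to 17.6 CPM and overlapped with the treated ones at 2.32 to 5.48 CPM. RBMS3 lost its call without untreated replicate 1 (log2 fold change -1.14, adjusted p 0.0643), untreated replicate 3 or combination replicate 1, 2 or 4. Against the DMSO libraries, which held 2.95 to 5.33 CPM, the log2 fold change of RBMS3 turned to 0.092. GMDS, an enzyme of GDP-fucose synthesis, had -1.19 (adjusted p 0.00111) with 1 untreated library at 71.2 CPM and the others at 17.6 to 34.4 CPM. SUPT3H, a subunit of the SAGA coactivator, had -1.07 (adjusted p 0.00967), LPP, a LIM protein of focal adhesions, -0.90 (adjusted p 0.00843), PTPRG -0.91 (adjusted p 0.00648) and PARD3 -0.56 (adjusted p 0.00544). Of the 8 fits without 1 library, PARD3 lost its call in 7, all but the one without untreated replicate 3, with an adjusted p of up to 0.0185. LPP lost it in 6, all but those without untreated replicate 2 or combination replicate 1, with an adjusted p of up to 0.076 and a log2 fold change of -0.61 without combination replicate 2. PTPRG lost it in 5, without untreated replicate 2 or 4 or combination replicate 1, 2 or 4, with an adjusted p of up to 0.0422. GMDS lost it without untreated replicate 1 (-0.68, adjusted p 0.0835) or combination replicate 1, and SUPT3H without untreated replicate 1 or 3 or combination replicate 1, 2 or 3 (adjusted p up to 0.0654).

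CREB5 and PDE4D were the 2 members called higher with the combination in WT cells. CREB5 stood at 89.4, 59.9, 70.7 and 78.8 CPM, above all untreated libraries, with a log2 fold change of 0.98 (SE 0.16, adjusted p 2.03e-05). PDE4D, a phosphodiesterase gene that ends cAMP signals, spans 1553 kb and has 8 listed starts, the innermost of them 30.9 kb from the gene end. It held 9.69, 16.02, 4.94 and 17.6 CPM in untreated and 22.9, 24.6, 18.8 and 23.3 CPM in treated libraries. The groups did not overlap, and the log2 fold change was 0.90 (SE 0.23, adjusted p 0.00812), a call lost without untreated replicate 3 (adjusted p 0.0751), untreated replicate 1 or combination replicate 1, 2 or 4.

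In PARP1-KO cells with Tpc + OL9-119 the edgeR test called 0 members, and 0% of all genes tested were called. With no adjustment 25 members were lower and 1 higher at p below 0.05, compared with 2.47% and 1.82% of all genes tested, and DESeq2 called 0 members. The median log2 fold change was -0.33, with 176 of 200 members below 0. Without both libraries that stand apart it was -0.49, with 179 members below 0, and 0 members were called, where 0.0242% of all genes tested were called. FAF1 then stood at -0.62 on the log2 scale (adjusted p 0.0293), and PARD3 at -0.59 (adjusted p 0.0319). With all 4 libraries, 20 members lay below all untreated libraries, compared with 2.58% of the protein-coding genes. The other 3 libraries alone lay below in 92 members, compared with 10.6%. PARD3 shows this at the level of single libraries, with 108, 97.6 and 101.8 CPM in replicates 1, 2 and 4, and 163 CPM in the library labelled replicate 3, against 119, 167, 163 and 166 CPM without treatment.

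OL9-119 added to Tpc called 0 members against Tpc alone in either genotype, where 0.18% of all genes tested were called in WT and 0% in PARP1-KO cells. DESeq2 also called 0. In WT cells 5 members were lower and 17 higher at an unadjusted p below 0.05, compared with 6.04% and 4.72% of all genes tested. In PARP1-KO cells 1 was lower and 3 higher, compared with 2.03% and 2.07%. The median was 0.06 in WT cells. In PARP1-KO cells it was 0.11 and turned to -0.037 without both libraries that stand apart. The difference of the combination response between the genotypes was called for CREB5 alone, where 0.27% of all genes tested were called, at -1.26 (adjusted p 0.000543), and at -1.30 (adjusted p 0.00098) without both libraries.

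OL9-119 alone had the opposite sign over the members in WT cells, without a call. The median log2 fold change was 0.21, with 60 of 200 members (30%) below 0, and medians of -0.15 under 10 kb and 0.05 at 30 to 100 kb. It was 0.15 at 100 to 200 kb and 0.14 at 200 to 500 kb, with 33.9% and 33.3% of the genes below 0. The rise was thus shared by the classes nearest in span. The edgeR test called 0 members, where 1.28% of all genes tested were called, and DESeq2 called 0. An unadjusted p below 0.05 was found for 27 higher and 5 lower members, compared with 8.24% and 7.81% of all genes tested. All 4 libraries lay above the untreated ones in 10 members, compared with 4.93% of the protein-coding genes. PARD3 had the lowest adjusted p, 0.0314, with 204, 181, 184 and 197 CPM against 114.1 to 149 CPM without treatment. In PARP1-KO cells the median was 0.11 with 65 members below 0, and again 0 members were called by edgeR and by DESeq2, where 0.00346% of all genes tested were called. No member was higher there and 1 lower at an unadjusted p below 0.05, compared with 1.39% and 1.83% of all genes tested. The difference of this response between the genotypes was called for 0 members by edgeR and by DESeq2, where 0.0657% of all genes tested were called.

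The solvent was measured by itself. DMSO against no treatment called 0 members in either genotype with edgeR and with DESeq2, where 0% of all genes tested were called. In WT cells 10 members were lower and 8 higher at an unadjusted p below 0.05, compared with 5.97% and 4.8% of all genes tested. In PARP1-KO cells none was, compared with 1.05% lower and 0.813% higher. The median was -0.02 in WT cells, and -0.07 in PARP1-KO cells, or -0.00 without both libraries that stand apart. With DMSO in place of no treatment as the comparator, the median of Tpc in PARP1-KO cells was -0.35, and -0.47 without both libraries. In WT cells the library medians of the members had a mean of 0.00 (SD 0.36, n = 4) with DMSO and -0.34 (SD 0.14) with Tpc. The spread with DMSO was wide there, and its lowest library overlapped with Tpc.

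The members were grouped by role from lists that hold 147 of them. The lists overlap, so the same call can be counted again. EXOC4, an exocyst subunit, stands in the lists of signalling, of membrane traffic and of common fragile sites. PTPRG and GPHN also stand in the list of common fragile sites. In WT cells with Tpc every list had more members below 0 than above it. The counts called lower in a list stand beside 0.304% of all genes tested. Of 35 genes of kinases, phosphatases and GTPase signalling 28 were below 0, with a median of -0.56 and 2 called lower, PTPRG and EXOC4. Here 15 members were lower and none higher at an unadjusted p below 0.05, compared with 7.32% and 8.23% of all genes tested. DOCK1, an activator of the GTPase RAC, was at -0.56 on the log2 scale (adjusted p 0.0896) and PRKCA, a protein kinase C, at -0.17 (adjusted p 0.741). Of 26 genes of cytoskeleton, scaffolds and polarity 19 were below 0, with a median of -0.44 and 2 called lower, PARD3 and GPHN. Of 16 metabolic and mitochondrial enzymes 13 were below 0, with a median of -0.64 and ADK called lower. Of 14 genes of membrane traffic, lysosome and ubiquitin 12 were below 0, with a median of -0.40 and 2 called lower, FAF1 and EXOC4.

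In the list of adhesion and axon guidance 16 of 22 members were below 0 in WT cells with Tpc, with a median of -0.50 and none called. The most counted of them, ROBO1, a receptor for SLIT guidance cues, was at -0.54 on the log2 scale (adjusted p 0.117), and ADGRL2, a latrophilin, at -0.29 (adjusted p 0.399). Of 21 transcription and chromatin factors 15 were below 0, with a median of -0.14, the highest of these lists, and CREB5 was called higher. Of 10 ion channels, transporters and receptors 7 were below 0, with a median of -0.16, among them RYR2, a calcium release channel, at -0.17 (adjusted p 0.733). All 5 genes listed for RNA binding, which include IMMP2L, a mitochondrial peptidase subunit, were below 0. All 6 genes listed for DNA repair and replication were below 0 too, but TTC28, CEP112 and CDK14 among them are known mainly for the spindle, the centrosome and the cell cycle. Of 25 genes at common fragile sites, which are regions of late replication that break under replication stress, 17 were below 0, with a median of -0.40 and 3 called lower.

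In PARP1-KO cells with Tpc the same lists had medians between -0.60 for the ion channels and -0.26 for RNA binding, apart from DNA repair and replication at -0.72. All 16 enzymes of the metabolic list were below 0 there. FAF1 was the only call in any list. The machinery around the polymerase was compared from a list of 50 genes of elongation, TOP1 and its repair that are not members. Of these, 1 was called lower and none higher in WT cells with Tpc, with a median of 0.07, and 0 were called in PARP1-KO cells, with a median of -0.01. The 1 called gene was TOP2A, the topoisomerase 2 of dividing cells, at -0.89 (adjusted p 7.17e-08). TOP1, the target of Tpc, had a log2 fold change of -0.21 in WT cells (adjusted p 0.303).

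Without treatment, the genotypes differed in 35 members, with 13 lower and 22 higher in PARP1-KO cells, where 5.74% of all genes tested were called lower and 5.97% higher. These shares include genes of lower counts than the rule for members allows. Of the 4450 protein-coding genes of 30 to 100 kb with a mean count of at least 10, 461 were lower and 661 higher. Of the 903 such genes of 200 to 500 kb, 60 were lower and 92 higher. An excess of higher members is therefore not claimed. The median log2 fold change of the members was 0.26, against 0.17 over all genes tested and 0.01 over protein-coding genes. All 4 PARP1-KO libraries lay above the WT ones in 40 members and below them in 16, compared with 18.8% and 16.9% of the protein-coding genes. Left without 1 of the 8 libraries, the fit called 18 to 34 members, 18 of them without untreated PARP1-KO replicate 4, 21 and 22 without replicates 3 and 1 of that group, and 23 without untreated WT replicate 1 or 3.

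Among the members called lower with a mean count of at least 50, TENM3 and CNTNAP2 had the lowest log2 fold changes. TENM3, a teneurin that guides neurites, held 58.6, 92.7, 79.1 and 137 CPM in WT and 27.3, 30.4, 30.8 and 35.5 CPM in PARP1-KO cells, without overlap, at a log2 fold change of -1.56 (SE 0.20, adjusted p 1.77e-08). CNTNAP2 held 33.7, 31.4, 25.3 and 42.8 CPM in WT and 12.2, 9.99, 12.2 and 11.6 CPM in PARP1-KO cells, at -1.54 (SE 0.22, adjusted p 3.08e-07). SUMF1, which activates sulfatases, CPQ, a carboxypeptidase, and SHANK2, a postsynaptic scaffold, had log2 fold changes of -1.38, -1.36 and -1.31 with adjusted p-values of 0.000245, 0.00465 and 0.00397. The call of CPQ was lost without WT replicate 1 or PARP1-KO replicate 1 or 4 (adjusted p up to 0.03), and that of SHANK2 without WT replicate 2 or 4 or PARP1-KO replicate 1, 2 or 3 (up to 0.0184). Of the 22 members of the adhesion and axon guidance list 5 were lower and 2 higher in PARP1-KO cells, compared with 5.74% and 5.97% of all genes tested. Among all 200 members 13 were lower and 22 higher.

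Both RARB, a retinoic acid receptor, and ALDH1A2, which makes retinoic acid, were higher in PARP1-KO cells. RARB held 0.734, 4.05, 1.68 and 5.00 CPM in WT and 14.7, 12.4, 12.6 and 14.4 CPM in PARP1-KO cells, at a log2 fold change of 2.26 (SE 0.42, adjusted p 3.08e-05). ALDH1A2 held 7.92, 18.8, 9.09 and 23.0 CPM in WT and 45.9, 38.1, 37.7 and 46.7 CPM in PARP1-KO cells, at 1.53 (SE 0.28, adjusted p 3.04e-05). NBEA, a protein of membrane traffic to synapses, was higher at 1.67 (SE 0.35, adjusted p 0.000254), with 2.67 to 10.1 CPM in WT and 18.7 to 24.1 CPM in PARP1-KO cells. CREB5 and PDE4D, the genes that rose in WT cells with Tpc + OL9-119, were already higher in untreated PARP1-KO cells, at 1.08 (adjusted p 6.07e-07) and 1.41 (adjusted p 3.95e-06). With Tpc CREB5 stood at 60.1 to 79.0 CPM in WT and at 57.9 to 70.4 CPM in PARP1-KO cells, so the ranges overlapped where the untreated ones did not.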

How the data were processed

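RNA was sequenced in 40 libraries of HEK293A cells, 4 for each of 10 conditions. Per the labels and the study's methods, the authors aligned the paired reads of strand-specific poly(A) libraries to hg38 (Ensembl 93) by STAR 2.7.8, checked them with FastQC 0.11.9 and Picard 2.26.6, and deposited raw counts per gene from the GeneCounts option of STAR. The strand column used is not given in the sources used here, so reads of a gene and of an antisense partner may be mixed. Counts were not normalized, and 0 columns of other samples were present.

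Of 58395 genes, the 28922 with a sum of 10 or more counts entered the tests, and 57754 listed genes were matched to GENCODE 44. After TMM scaling, edgeR 4.0.16 (R 4.3.3) fitted a quasi-likelihood model with 1 group per condition to all 40 libraries and gave F-tests of 14 comparisons, with Benjamini-Hochberg adjustment over all genes tested and a threshold of 0.01. CPM are scaled by the TMM-adjusted library size, and deviations of log2 CPM used a prior count of 2. DESeq2 1.42.0, which the study used, was an alternative. The fit was also run on simulated counts, with changes planted only in genes with a mean count of at least 50. These changes were larger than the members' median change. The simulation therefore does not cover smaller changes or members of lower counts. Depth limits the precision for members of few counts.

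The members and the role lists were chosen with earlier results of these data known, so neither is independent support. Members are read out of the fit over all genes, with no test of a list. Genes named are, per comparison with no treatment and between genotypes, the 5 lowest and 3 highest log2 fold changes among members called with a mean count of at least 50 over the 8 libraries, members called in both genotypes, the 5 longest, the 5 of highest mean CPM, the 2 most counted of each list, and the genes nearest the thresholds. Other called members were named after their values were seen, and 1 marker is not reported here. Replicate numbers come from the labels, and same-numbered libraries did not deviate together in every pair, so no block was used. The alternatives were other normalizations, filters, tools, comparators, fits, thresholds, offsets and left-out libraries, and the fits without both PARP1-KO libraries that stand apart were added after seeing the data.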

Additional observations from a re-analysis of the deposited data

Results flagged for a closer look

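A library was marked where its gap to the nearest of the other 3, divided by the range of the group, was above the 95% critical value of Dixon for 4 values. This was the case in 25 of 230 sets of values (10.9%), where chance marks about 1 in 20 sets, over 21 genes and the 2 medians of the members.

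The median level of the members was marked in the library labelled PARP1-KO with DMSO replicate 3 (low, 0.859, and 0.977 relative to genes of 30 to 100 kb), in the library labelled PARP1-KO with Tpc + OL9-119 replicate 3 (high, 0.946 and 0.885) and in PARP1-KO with OL9-119 replicate 2 (low, 0.861). In the library labelled PARP1-KO with Tpc + OL9-119 replicate 3, GPHN (0.929), TTC28 (0.894) and PARD3 (0.838) were high. In the library labelled PARP1-KO with DMSO replicate 3, PDE4D was high (0.857).

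Other genes were marked in single libraries. In PARP1-KO cells these were CNTNAP2 (high, 0.884) and CREB5 (low, 0.853) with Tpc + OL9-119 in replicate 2, FOXP2 (high, 0.946) and PARD3 (low, 0.914) without treatment in replicate 1, and PTPRG (high, 0.865) with Tpc in replicate 3. SHANK2 was high with Tpc in replicate 1 (0.88), RARB low with OL9-119 in replicate 2 (0.834) and SUMF1 high with OL9-119 in replicate 3 (0.892). In WT cells FAF1 was low without treatment in replicate 4 (0.84) and SUMF1 in replicate 3 (0.848). With Tpc, CNTNAP2 was low in replicate 1 (0.862), PDE4D in replicate 2 (0.958) and SUMF1 in replicate 4 (0.867). With OL9-119, replicate 2 was marked for PTPRG (low, 0.88), TTC28 (low, 0.841) and WWOX (high, 0.855).

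CREB5 is given because its response differed between the genotypes by a test of the difference itself, by -1.19 for Tpc and by -1.26 for Tpc + OL9-119 on the log2 scale. The dose of Tpc also differed between the genotypes.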

How the results depend on the processing

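Apart from fits without 1 library, 304 of the values that answer a comparison were kept under the alternatives, 29 moved and 3 turned. A count of calls was scored as kept when equal, 0 included, or of similar size. A median was kept when it stayed within the spread of the libraries. Among the values of named members that were called, 357 kept the call, 42 lost it and 2 turned. The counts of members called in this section are given without the share of all genes called under the same setting. That share can change with the setting, so a higher or lower count is no result about the members. For Tpc in WT cells, where 8 members were called, the count was 14 with DESeq2, 17 with no filter, 3 in the fit of WT libraries alone, 20 at a threshold of 0.05 and 16 with an offset for exonic length. For Tpc in PARP1-KO cells, where 1 member was called, it was 2 with DESeq2, 7 with no filter, 19 in the fit of PARP1-KO libraries alone, 0 with DMSO as comparator (median log2 fold change -0.35), 3 without both libraries that stand apart and 2 with DMSO as comparator and without both (median -0.47). For Tpc + OL9-119 in WT cells, where 12 were called, it was 24 with no filter, 5 in the fit of WT libraries alone, 33 at 0.05 and 19 with the offset, and the median over members of 1000 kb or more was -0.028. For the combination in PARP1-KO cells it was 1 with no filter, and the median was -0.49 without both libraries and -0.50 with DMSO as comparator as well. For OL9-119 in WT cells it was 1 with no filter, 2 at 0.05 and 1 without both libraries, and in PARP1-KO cells the median was 0.17 against DMSO. The median of the combination against Tpc was 0.29 in WT cells over members of 1000 kb or more, and -0.037 in PARP1-KO cells without both libraries. PARP1-KO against WT gave 17 calls in the fit of these groups alone and a median of 0.14 with the offset. The median genotype difference of the combination response turned to -0.17 without both libraries and to -0.24 over members of 1000 kb or more. RBMS3 with the combination in WT cells turned to 0.092 against DMSO and to 0.085 against DMSO without both libraries. Fits of fewer libraries, and with no filter more genes, differ in what gives the spread and the adjustment; the cause was not tested otherwise.

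Leaving out 1 library at a time gave 4 to 9 calls for Tpc in WT cells (median -0.51 to -0.40), 0 to 1 in PARP1-KO cells (-0.44 to -0.37), 6 to 11 for the combination in WT cells (-0.42 to -0.30) and 0 in PARP1-KO cells (-0.48 to -0.28). OL9-119 gave 0 to 1 calls in WT cells (0.18 to 0.30) and 0 in PARP1-KO cells (0.09 to 0.14), PARP1-KO against WT 18 to 34 (0.22 to 0.34), the genotype difference of the Tpc response 0 to 1 (-0.10 to 0.05) and that of the combination 1 (-0.17 to 0.054). The median of the combination against Tpc in PARP1-KO cells ranged from -0.048 to 0.16, below 0 only without replicate 3 of the combination.

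With the replicate number as a block, Tpc gave 12 calls in WT and 2 in PARP1-KO cells and the combination 16 in WT cells. Deviations of same-numbered libraries correlated between -0.16 and 0.32, and no comparison had all above 0.1, so the numbers were read as names only. Depth limits members of few counts.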
